A study of Triticum aestivum with 122 samples.

Results

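The 100 transcripts described here had lower values at 29 °C than at 22 °C in every heat comparison of wheat heads, 12 comparisons in all. They were chosen by that property from 30140 entries, each a transcript ID of the table, whose mean normalized count over all libraries was at least 20. For each of 2 tissues, 2 seed treatments and 3 times, the mean of log2(normalized count + 1) at 22 °C was subtracted from that at 29 °C; this difference is called the heat effect. The 100 entries with the lowest maximum over the 12 heat effects are the members, and they belong to 100 genes. Of the 30140 entries, 1388 had all 12 heat effects below 0. Because the members were chosen on these heat effects, the effects are given as a description and carry no test.

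Libraries came from Triticum aestivum (bread wheat) of the cultivar Vida, whose heads were dissected before emergence into floret and rachis, the axis that bears the spikelets. Seeds were germinated for 48 h with 1 µM DMSO, the solvent control, or with 1 µM 2,4-epibrassinolide (EBR), a brassinosteroid; all plants were then grown at 22 °C under 16 h of light. From the tetrad stage on, some pots of either seed treatment stood at a constant 29 °C, and sampling took place at 0 h, before that move, and at 8, 16 and 24 h. Pots labelled 29 °C at 0 h had therefore not been heated, and these 0 h libraries were not used to choose the members. Tissue, seed, temperature and time define 32 groups, which held 4 libraries each in 26 cases, 3 in 5 cases and 2 in 1 case, the rachis of EBR plants at 22 °C and 8 h. The groups model a constant, moderate warming of potted plants of a single cultivar, and floret and rachis are bulk tissues, in which fewer cells of a type and less RNA per cell cannot be told apart.

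At the tetrad stage the pollen mother cells have completed meiosis, and wheat heads at this stage are known to be sensitive to heat. Brassinosteroids are plant steroid hormones that are sensed by a receptor kinase at the cell surface and act on growth and stress responses. The gene IDs of the table could not be paired with names or functions, so members are described by ID, chromosome and behaviour. No named marker genes of floret or rachis could be used for the same reason.

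The 61 floret libraries held 14.5 to 21.8 M reads over the listed entries (median 17.4 M) and the 60 rachis libraries 10.6 to 18.2 M (median 14.7 M). Between 41049 and 47131 entries had a value above 0 in a library. The lowest chi-square per entry among 172 replicate pairs was 2.48, which is above sampling noise. Labels call the replicates biological, and each plant gave its floret and rachis library from 1 head.

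Tissue labels were instead checked with a score over the 500 eligible entries, members left out, that differed most between the floret and rachis libraries of all other plants; 1 is the floret side and -1 the rachis side. Of the 121 libraries, 7 lay on the side opposite to their label. In 3 plants this held for both libraries: those labelled EBR, 22 °C, 16 h, replicate 3 (floret -1.42, rachis 0.91), DMSO, 29 °C pots, 0 h, replicate 1 (-0.86 and 0.92) and DMSO, 22 °C, 0 h, replicate 1 (-0.66 and 0.18). The library labelled rachis, DMSO, 22 °C, 8 h, replicate 4 was the seventh (0.37), and the floret library of that plant lay on the floret side. The other 58 floret libraries scored from 0.07 to 1.52 and the other 56 rachis libraries from -2.33 to -0.09. Why these libraries go against their labels was not tested. All libraries were kept under their labels, and results that rest on the 7 are given with and without them, an alternative added after seeing the data.

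Heat effects of the members were modest in size and present throughout the series. The median heat effect over the 100 members ranged from -0.48 in the floret at 16 h after DMSO seed, 28.3% lower, to -0.89 in the rachis at 8 h after EBR seed, 46.1% lower. The comparison with -0.89 had only 2 unheated libraries. The other 10 medians lay between -0.89 and -0.48, while the medians over all 30140 entries lay between -0.04 and 0.02. Averaged over the 12 comparisons, members ranged from -2.81 to -0.37 with a median of -0.65, and 14 members were lowered more than 2-fold on this average. The highest of the 12 heat effects, which set a member's rank, had a median of -0.31 and lay below -0.50 in 17 members. Without the 7 libraries that go against their tissue label, 97 of the 100 members still had all 12 heat effects below 0, and the rule kept 90 of them.

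**Figure D1:**
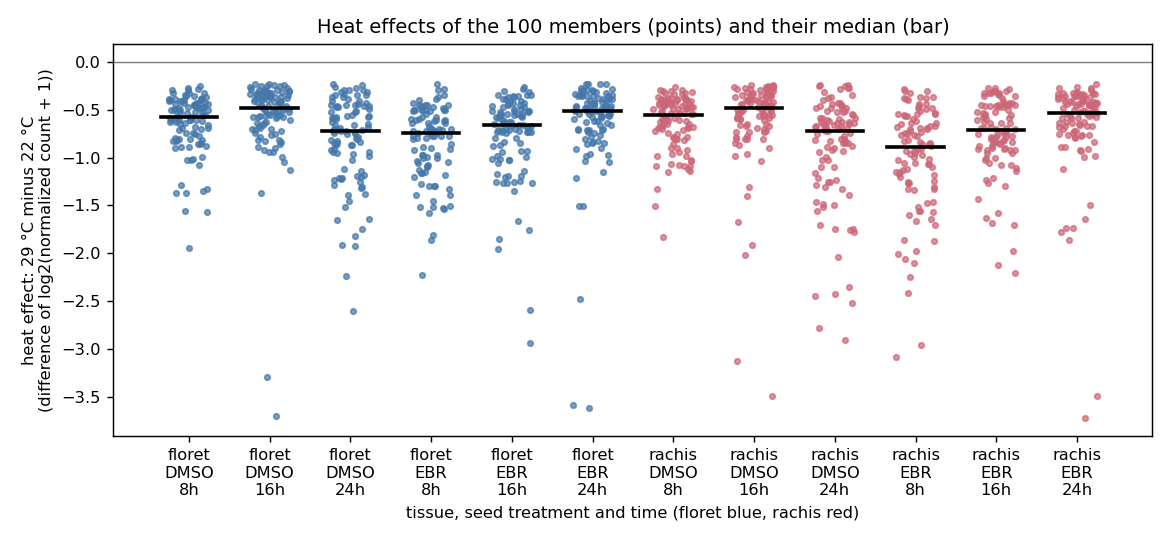
Heat effect (difference of log2(normalized count + 1), 29 °C minus 22 °C) of each of the 100 members in the 12 comparisons, floret in blue and rachis in red; points are members and bars their median. All points lie below 0 because the members were chosen so, and the median is lowest, at -0.89, in the rachis at 8 h after EBR seed, where only 2 libraries were unheated.

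The comparison that set a member's rank was most often the floret at 16 h after DMSO seed, which held the highest heat effect of 23 members, followed by the rachis of the same plants with 15. The lowest heat effect fell most often in the rachis at 8 h after EBR seed (37 members) and in the rachis at 24 h after DMSO seed (22 members). Over all entries tested, heat was called either way in 24.5% and 30.3% in these comparisons (limma adjusted p under 0.05). In the other rachis comparisons 1.32% to 2.61% of all entries were called. Larger heat responses there were thus not limited to the members. Averaged over tissues and times, 83 members had a lower heat effect after EBR than after DMSO seed, by a median of -0.07, against a median of -0.0002 over all eligible entries. Averaged over seeds and times, 61 members had a lower heat effect in the rachis than in the floret, by a median of -0.04. These differences come from the values that chose the members and were not tested.

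Libraries of the heated and unheated groups were wholly separate in 60 members in the rachis at 16 h after DMSO seed, where this held for 6.02% of all eligible entries, and in 92 members in the rachis at 8 h after EBR seed, where it held for 26.4%. The latter comparison had only 2 unheated libraries, replicates 2 and 3, against 4 in the former, so separate groups were easier to reach. The groups were separate in all 12 comparisons for 20 members and for 4 of the 30040 other eligible entries, and in at least 9 comparisons for 59 members and 157 of these other entries (0.523%). For 2 members, TraesCS1B03G1070300.1 and TraesCS4D03G0522700.2, named after their values were seen, the heated and unheated libraries overlapped in every comparison.

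At the threshold the members passed into the entries not chosen without a gap. The highest heat effect was -0.230 at rank 99, -0.229 for TraesCS4D03G0537400.1 at rank 100, -0.227 for TraesCS5A03G1039400.1, the next entry, and -0.225 for the one after it. In the floret, TraesCS4D03G0537400.1 had 54.4 to 128 normalized counts (median 79.1) in 23 libraries at 22 °C and 29.6 to 78.8 (median 51.8) in 23 libraries at 29 °C, over the times from 8 to 24 h. TraesCS5A03G1039400.1, the first entry not chosen, had 121 to 226 (median 163) at 22 °C and 84.4 to 159 (median 117) at 29 °C. In both entries the ranges of the temperatures overlapped.

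On the average over members, libraries of heads taken before the move overlapped with those kept at 22 °C and not with heated ones. Those 0 h libraries had no part in the choice of members. The later libraries at 22 and 29 °C did, which favours their separation, so no test is given. The mean of log2(normalized count + 1) over the 100 members was 8.18 to 8.42 in the 15 floret libraries at 0 h, 7.85 to 8.48 in the 23 kept at 22 °C and 7.20 to 7.78 in the 23 at 29 °C. In the rachis it was 8.11 to 8.44 in 16 libraries at 0 h, 7.91 to 8.47 in 21 at 22 °C and 7.10 to 7.80 in 23 at 29 °C. The heated libraries did not overlap with either of the other sets in either tissue, with or without the 7 libraries that go against their label.

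The median member differed from its 0 h level by 0.03 in the floret and 0.02 in the rachis when kept at 22 °C, and by -0.60 and -0.65 when heated, all as log2 differences (0.02, 0.01, -0.61 and -0.65 without the 7 libraries). Averaged over the heated groups, 100 of 100 members were below their 0 h level in each tissue, as were 50.8% of eligible entries in the floret and 49.8% in the rachis. In each tissue 97 members were below the 0 h level in every one of the 6 heated groups (12.3% and 11.3% of eligible entries). The heated libraries in these differences are those that chose the members, so no test is given.

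**Figure D2:**
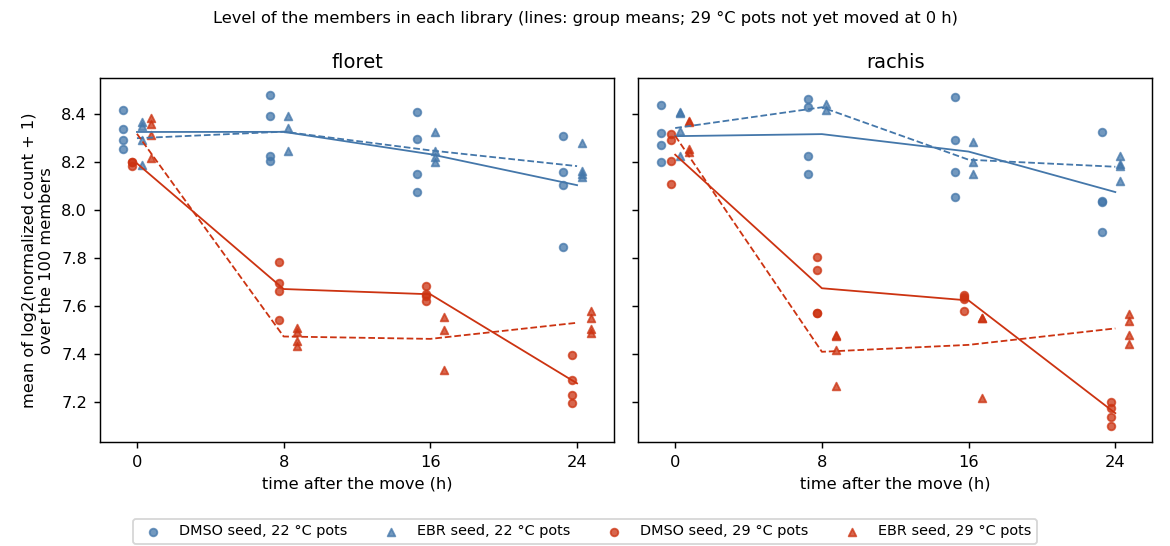
Mean of log2(normalized count + 1) over the 100 members in each library against time after the move (h), by tissue, seed treatment and pot temperature; points are libraries and lines join group means. At 0 h the pots labelled 29 °C had not been moved, and all heated libraries of 8 to 24 h lie at or below 7.80.

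TraesCS2B03G0442100.1 and TraesCS2D03G0341300.1, ranked 1 and 2, had the deepest heat effects. In the floret TraesCS2B03G0442100.1 had 261 to 4461 normalized counts (median 1773) at 0 h, 85.6 to 2491 (median 1144) at 22 °C and 48.0 to 243 (median 91.8) at 29 °C. In the rachis the corresponding medians were 2508, 1030 and 101.4. Heated libraries reached 243 in the floret and 244 in the rachis, while those not heated spread over more than an order of magnitude, so the ranges overlapped. TraesCS2D03G0341300.1 had floret medians of 1131, 721 and 72.1 and rachis medians of 1608, 626 and 70.9 in the same classes. Its mean heat effect over the 12 comparisons was -2.49, against -2.81 for the first.

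The spread among unheated libraries of TraesCS2B03G0442100.1 followed the replicate number of the labels. In the floret at 8 h after DMSO seed and at 22 °C, replicates 1 to 4 had 92.4, 592, 1539 and 1144 normalized counts, and at 29 °C they had 243, 150, 74.1 and 161. In the floret at 24 h after EBR seed the values were 268, 889, 1758 and 2491 at 22 °C and 115, 55.1, 73.9 and 93.2 at 29 °C. Number 1 was the lowest library in 9 of 10 unheated floret groups that held it and in 9 of 9 such rachis groups. Over all unheated libraries its geometric mean in the floret was 251 in number 1, 935 in number 2, 1972 in number 3 and 2270 in number 4; in heated libraries it was 151, 85.9, 80.2 and 86.7.

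**Figure D3:**
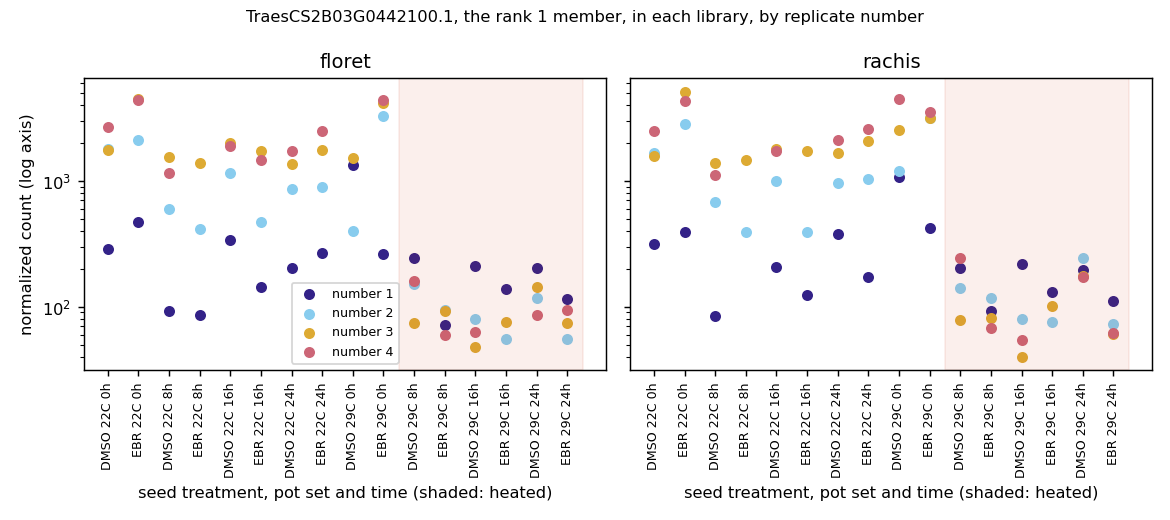
Normalized counts (log axis) of TraesCS2B03G0442100.1 in each library by seed treatment, pot set and time, coloured by replicate number, with the heated groups shaded. Unheated libraries of number 1 lie lowest in 9 of 10 floret groups and 9 of 9 rachis groups, and heated libraries of all numbers lie at or below 244.

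Heat effects were therefore computed within each replicate number, as the mean over the pairs of heated and unheated libraries with the same number, tissue, seed and time. For TraesCS2B03G0442100.1 in the floret this gave -0.14 within number 1 and -2.98, -4.32 and -4.19 within numbers 2, 3 and 4. In the rachis it gave -0.04, -2.63, -4.35 and -4.03. A test of whether the heat effect differed between replicate numbers was added after these values had been seen, and it uses only deviations within groups, which the choice of members did not use.

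In that test 8 members were called in the floret and 8 in the rachis (limma on all entries, Benjamini-Hochberg adjusted p under 0.05), where 0.655% and 0.45% of all entries tested were called. They were the same 8 members in both tissues, which share plants and are not independent. At an unadjusted p under 0.05 the members numbered 17 and 13 (8.81% and 5.67% of all entries). The 8 members, named after their values were seen, were TraesCS2B03G0442100.1, TraesCS2D03G0341300.1, TraesCS2D03G0906200.1, TraesCS2B03G1068900.1, TraesCS2A03G0964500.1, TraesCS4D03G0522700.2, TraesCS4B03G0630100.1 and TraesCS1B03G1070300.1. They included 5 of the 7 members ranked first. Without replicate number 1 the test still called 6 of the 8 in the floret and 4 in the rachis. Over all entries it then called 45 and 46, against 251 and 175 with all libraries. Leaving out the 7 libraries that go against their tissue label, it called the same 8 in each tissue.

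Within number 1 the heat effects of the 8 members had a median of 0.11 in the floret, from -0.14 to 0.85, and of 0.10 in the rachis, from -0.05 to 2.26. Their floret medians within numbers 2, 3 and 4 were -0.88, -2.29 and -2.52, and their rachis medians -0.90, -2.29 and -2.79. The other 92 members had floret medians of -0.61, -0.60, -0.59 and -0.61 and rachis medians of -0.58, -0.66, -0.67 and -0.66 within numbers 1 to 4, and all 92 were below 0 within every number of either tissue. The share of eligible entries below 0 ran from 48.5% (rachis, number 4) to 51.4% (floret, number 1). These libraries chose the members, so values below 0 were favoured by the choice and were not tested. Number 1 was the lowest library of these 8 members in 8 to 10 of 10 unheated floret groups and in 8 or 9 of 9 rachis groups. TraesCS4D03G0522700.2 had low values, with geometric means over unheated floret libraries of 10.9, 32.8, 62.3 and 54.4 in numbers 1 to 4, and its effects are the least precise of the 8.

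**Figure D4:**
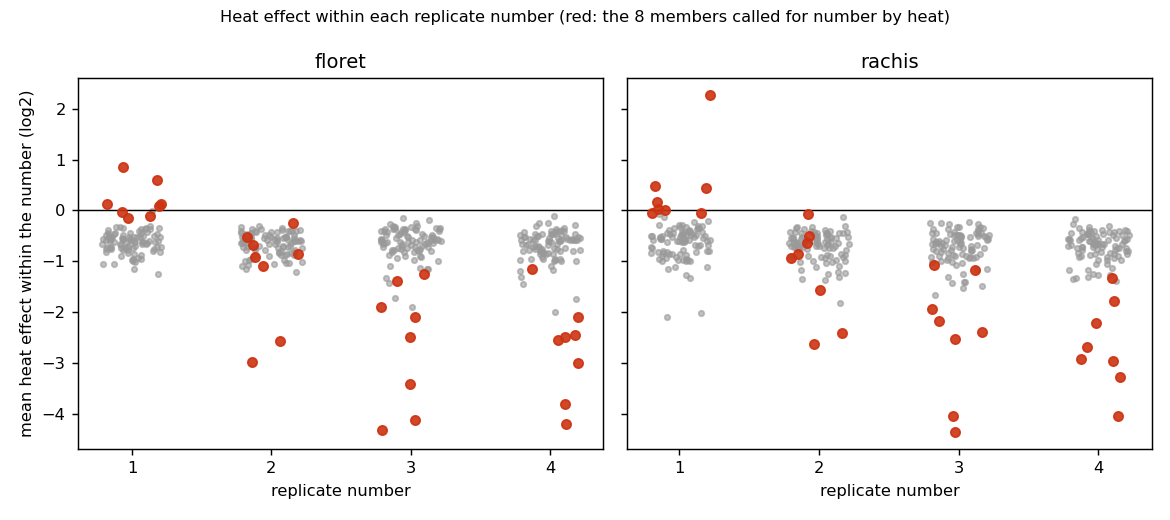
Mean heat effect (log2) within each replicate number for each of the 100 members, by tissue; points are members, with the 8 members called for a difference between numbers in red. In number 1 the red points lie between -0.14 and 0.85 in the floret, and in number 3 they lie between -4.32 and -1.25.

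What a replicate number stands for is not given beyond its being a replicate: pots were placed in randomized complete blocks, per the labels, but no label ties a number to a block. Whether position, plant or handling moved with the number was not tested. Across all entries the mean correlation between residuals of same-numbered libraries was 0.001 (floret) and 0.009 (rachis), and 107 of 438 and 121 of 423 pairs were over 0.1. Heated and unheated libraries are pooled in this mean. Differences between numbers that reverse with heat can cancel in it, as they can in a main effect of number. As a main effect over unheated and heated libraries together, replicate number was called in 0 members in the floret and in 3 in the rachis (limma, 0.0235% and 0.296% of all entries).

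The same members also varied together within groups. Residuals of TraesCS2B03G0442100.1 and TraesCS2D03G0341300.1 had a Pearson r of 0.984 across 61 floret libraries and 0.982 across 60 rachis libraries, and no other eligible entry followed TraesCS2B03G0442100.1 with an r over 0.9 in both tissues. A second set held TraesCS2D03G0906200.1, TraesCS2B03G1068900.1, TraesCS2A03G0964500.1 and TraesCS1B03G1070300.1, whose pairs all exceeded 0.9 in both tissues. Of 15 eligible entries that followed TraesCS2D03G0906200.1 at this level, 3 were members, and 9 were lower in heat on the average of the 12 comparisons. These correlations are descriptions over libraries that share plants and groups.

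Over all 100 members the mean r of the 4950 pairs was 0.09 in each tissue, against 0.001 and 0.002 over eligible entries, and 275 floret pairs and 356 rachis pairs had an r over 0.5. Among the 92 members not called between replicate numbers the mean r of the 4186 pairs was 0.11 and 0.12, with 247 and 328 pairs over 0.5 and 0 over 0.9. The largest axis of variation within groups correlated with 27 members in the floret and 29 in the rachis at an absolute r over 0.5, against 40.0% and 47.6% of eligible entries. The SD within groups on the log2 scale had a median of 0.238 over members and 0.267 over eligible entries.

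The most even heat effects belonged to TraesCS3A03G0702500.1 at rank 62, chosen after its values were seen, with 12 values between -0.51 and -0.28. In the floret it had 383 to 499 normalized counts (median 466) at 0 h, 360 to 542 (median 466) at 22 °C and 326 to 402 (median 353) at 29 °C. In the rachis the medians were 463, 464 and 359. Heated and unheated ranges overlapped in both tissues.

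The members of highest mean level were TraesCS5B03G1237400.1 and TraesCS1D03G0956300.1. TraesCS5B03G1237400.1 had 6890 to 11135 normalized counts (median 9037) in the floret at 22 °C and 4810 to 8435 (median 6572) at 29 °C, and rachis medians of 7231 and 4773. TraesCS1D03G0956300.1 had floret medians of 1267 at 22 °C and 697 at 29 °C and rachis medians of 9826 and 5711. In the rachis at 24 h after DMSO seed its replicates had 2547, 11300, 3724 and 5127 normalized counts at 22 °C and 1112, 841, 522 and 495 at 29 °C, and these groups did not overlap. Its heated and unheated groups were separate in 4 of the 12 comparisons, against a median of 9 over members.

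A single library decided the heat effect of TraesCS1D03G0956300.1 in the floret at 16 h after EBR seed. There the 22 °C replicates had 782, 1336, 17282 and 811 normalized counts and the 29 °C replicates 698, 777 and 833. The heat effect was -1.35 with all libraries and -0.30 without replicate 3 at 22 °C, which is still below the -0.229 of rank 100. Replicate 3 is one of the 3 plants in which both libraries go against their tissue labels. Its library labelled rachis had 911 normalized counts of this gene, against 10619 and 11905 in the other 2 rachis libraries of the group. TraesCS5B03G0747200.1, another member, was also high in the library labelled floret of this plant (465, against 93.4 to 159 in the others) and low in the one labelled rachis (181, against 482 and 517).

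Time after the move was tested on averages over both temperatures and seeds, which the choice of members did not use. It was called in 50 members in the floret and 56 in the rachis, close to the 48.6% and 55.1% of all entries called (limma, 2 degrees of freedom over 8, 16 and 24 h). The direction of the called changes differed from that of all entries: 43 members in the floret and 51 in the rachis were called and lower at 24 h than at 8 h, where 21% and 24.2% of all entries were, and 7 and 5 were called and higher, where 27.7% and 30.9% were. Members called with their highest level at 8 h numbered 37 and 45 (19% and 20.9% of all entries), those highest at 16 h 11 and 9 (5.05% and 6.78%), and those highest at 24 h numbered 2 and 2 (24.6% and 27.5%).

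The decline with time appeared at both temperatures. In the floret the median member differed between 24 h and 8 h by -0.15 at 22 °C and by -0.13 at 29 °C, and in the rachis by -0.21 and -0.20. Between 74 and 77 members were lower at 24 h in each of these 4 sets of groups, where 48.9% to 50.5% of eligible entries were. Over all eligible entries the medians were between -0.004 and 0.01.

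TraesCS5A03G0769500.1 had the largest rise with time, from 8 h to 16 h. In the floret of DMSO plants at 22 °C its replicates had 255, 223, 263 and 295 normalized counts at 8 h, 903, 818, 818 and 857 at 16 h, and 234, 319, 248 and 221 at 24 h. At 29 °C they had 130, 128, 116 and 135 at 8 h, 645, 692, 776 and 550 at 16 h, and 184, 157, 153 and 191 at 24 h. Values at 16 h stood apart from those at 8 and 24 h at either temperature. The log2 change from 8 to 16 h was 2.19 in the floret (SE 0.0611, limma adjusted p = 5.41e-33 for time) and 2.77 in the rachis (SE 0.0750, adjusted p = 2.14e-33).

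TraesCS4A03G0878900.1 had the largest fall in the floret, by 1.02 on the log2 scale from 8 to 16 h (SE 0.0636, limma adjusted p = 5.39e-20), and at 24 h it differed from 8 h by 0.01. In the floret of DMSO plants at 22 °C it had 364, 424, 428 and 401 normalized counts at 8 h and 265, 242, 299 and 229 at 16 h, so these groups did not overlap. In the rachis TraesCS1D03G0026200.1 had the largest fall, by 1.10 from 8 to 24 h (adjusted p = 9.30e-07), and in DMSO plants at 29 °C it had 160, 122, 166 and 77.4 normalized counts at 8 h and 21.5, 23.0, 28.8 and 17.96 at 24 h.

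EBR given to the seed was compared with DMSO to ask whether the members kept a trace of the seed treatment. At 0 h, limma called 1 member in the floret (0.483% of all entries) and 0 in the rachis (0.018%), where edgeR called 1 member. At an unadjusted limma p under 0.05 there were 26 members in the floret, against 4392 of 38320 entries tested. In the rachis there were 12 members at this level, against 2568 of 38883 entries tested. The floret call was TraesCS5A03G0769500.1, where 0.0887% of all entries were called lower; it was lower after EBR by a log2 difference of -0.50 (SE 0.0863, limma adjusted p = 4.67e-04). Its replicates in pots kept at 22 °C had 676, 659, 631 and 548 normalized counts after DMSO and 451, 442, 450 and 426 after EBR, without overlap. In the rachis its difference was -0.47 (SE 0.0965, limma adjusted p = 0.0588). Without the 7 libraries that go against their tissue label the floret difference was -0.43 (adjusted p = 0.0261). Without replicate 1 this call was lost (adjusted p = 0.118), while 2 other members were called (0.231% of all entries), and 5 members were called without replicate 3 (0.557%).

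From 8 to 24 h, averaged over temperatures and times, 5 members were called in the floret, 2 higher and 3 lower after EBR, where 15% of all entries were called (5.44% higher, 9.54% lower). In the rachis 11 were called, 6 higher and 5 lower, where 16.5% were (8.1% and 8.42%). The floret count was 0, 0, 9 and 0 without replicates 1 to 4, where 0.951%, 4.79%, 24.0% and 3.44% of all entries were called. The rachis count was 4, 6, 7 and 3 without replicates 1 to 4, where 1.91%, 12.3%, 7.06% and 5.85% were called. Without replicate 1 the rachis count thus lay above the share over all entries. When the 7 libraries that go against their label were left out, 10 members were called in the floret, 3 higher and 7 lower (23.7% of all entries), and 9 in the rachis (13.3%). With all libraries and without the 7, both counts lay below the share over all entries.

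TraesCS5B03G0747200.1 was lower after EBR in both tissues, by a log2 difference of -0.43 in the floret (SE 0.138, limma adjusted p = 0.0300) and -0.68 in the rachis (SE 0.204, adjusted p = 0.0205). In the rachis at 24 h and 22 °C its replicates had 1529, 407, 453 and 1028 normalized counts after DMSO and 412, 292, 307 and 346 after EBR, and the groups overlapped by a single library of each. In the floret the call was lost without replicate 1, 2 or 4 (adjusted p = 0.270, 0.138 and 0.108) and in edgeR (0.0682), and the rachis call without replicate 1, 3 or 4 (0.135, 0.0581 and 0.0864). Without the 7 libraries that go against their tissue label the differences were -0.52 (adjusted p = 0.00117) and -0.65 (0.0173).

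The largest rises after EBR were those of TraesCS2D03G0208400.1 in the floret, by 0.33 (SE 0.0991, limma adjusted p = 0.0206), and of TraesCS1D03G0026200.1 in the rachis, by 0.45 (SE 0.149, adjusted p = 0.0326). In the floret at 24 h and 29 °C TraesCS2D03G0208400.1 had 232, 187, 153 and 149 normalized counts after DMSO and 522, 472, 474 and 476 after EBR, which did not overlap. The difference in this group was larger than the average of 0.33. Without the 7 libraries, the floret heat effect at 24 h was -1.20 after DMSO and -0.35 after EBR. At 8 h it was -0.45 and -0.71, and at 16 h -0.23 and -1.10. The call of TraesCS2D03G0208400.1 ended without replicate 1, 2 or 4 (adjusted p = 0.346, 0.0581 and 0.0772). The call of TraesCS1D03G0026200.1 ended without replicate 1, 2 or 4 (0.336, 0.0551 and 0.124), when the fit held only the compared groups (0.0601), and without the 7 libraries that go against their tissue label (0.0757). Without those 7 the difference of TraesCS2D03G0208400.1 was 0.35 (adjusted p = 0.0103).

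Pots that were to be moved were compared with pots that were kept, both at 0 h, as a check on groups that had not yet been treated differently. No member was called in either tissue by limma or by edgeR (limma: 0% and 0.00257% of all entries). In the floret 7 members had an unadjusted limma p under 0.05, against 2287 of 38320 entries tested. In the rachis 5 members did, against 2683 of 38883 entries tested.

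Between tissues at 0 h, 29 members differed, 17 higher and 12 lower in the floret, close to the share over all entries (30.8%, of which 14.4% higher and 16.4% lower). Without replicates 1 to 4 the count was 36, 13, 9 and 14, where 41.2%, 12.8%, 8.31% and 15.8% of all entries were called, and with the plant as a block it was 34 (37.8%). Without the 7 libraries that go against their tissue label it was 34, 22 higher and 12 lower (41.7%). TraesCS1D03G0956300.1 was lower in the floret by a log2 difference of -2.08 (SE 0.293, limma adjusted p = 1.56e-06), with 789 to 13658 normalized counts (median 1392) in 15 floret libraries and 2794 to 15764 (median 9678) in 16 rachis libraries. The libraries of DMSO replicate 1, 2 of the 3 plants in which both go against their label, held 13658 (22 °C pots) and 12237 (29 °C pots) under the floret label, and 2794 and 3073 under the rachis label. Without the 7 libraries the difference was -2.69 (adjusted p = 3.45e-18), with 789 to 4165 normalized counts in 13 floret libraries and 3530 to 15764 in 14 rachis libraries. In the same 2 plants TraesCS5B03G0747200.1 had 320 and 329 under the floret label and 177 and 115 under the rachis label, where the other rachis libraries of these groups held 274 to 575. TraesCS2D03G0208400.1 was higher in the floret by 0.47 (SE 0.141, adjusted p = 0.00798), a call that ended without replicate 3 (0.0787) or 4 (0.0833). In the plant of the 22 °C pots named above it had 609 under the floret label and 477 under the rachis label, which goes with the labels. In the plant of the 29 °C pots it had 385 and 443, which goes against them. Its difference was 0.53 without the 7 libraries (limma adjusted p = 0.00211). The ranges of the tissues overlapped for both genes, also without the 7 libraries.

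**Figure D5:**
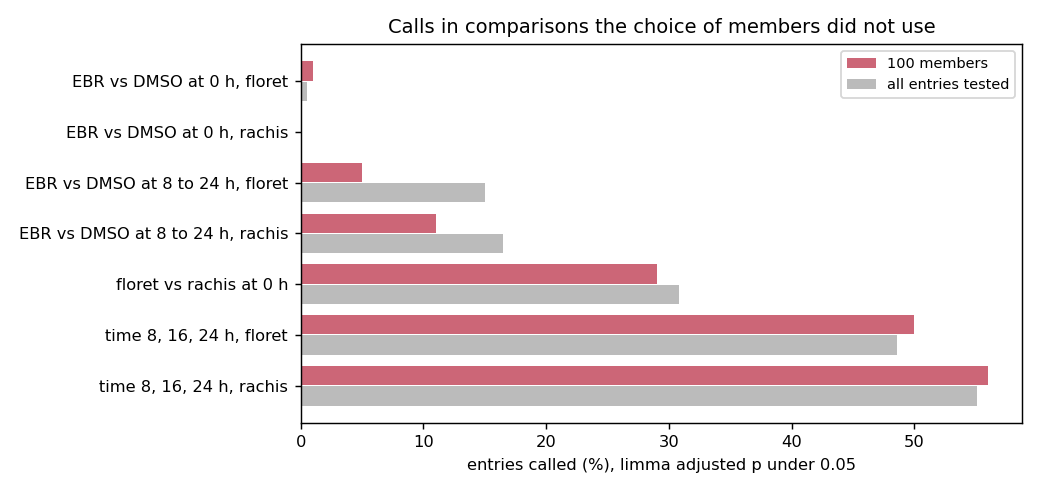
Percent of the 100 members (red) and of all entries tested (grey) called at a limma adjusted p under 0.05 in comparisons that the choice of members did not use. Members were called in 5% and 11% of cases for EBR at 8 to 24 h against 15% and 16.5% of all entries, and in 50% and 56% for time against 48.6% and 55.1%.

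By position the members were spread over the genome as listed. The A, B and D subgenomes held 33, 33 and 34 members, against 34.0%, 33.6% and 32.5% of eligible entries. Chromosomes 1D and 2D held 10 members each and 5D held 2. A single pair of members was adjacent among the eligible entries, TraesCS2A03G1092500.1 and TraesCS2A03G1092800.1, named after their values were seen. The 197 nearest eligible neighbours of members had a median heat effect of -0.02 on the average of the 12 comparisons, and 53.3% were below 0, against 48.4% of eligible entries. Members were somewhat more abundant than eligible entries, with a median normalized count of 276 against 180.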

How the data were processed

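Poly(A)-selected RNA was sequenced from floret and rachis of wheat heads. DESeq2, featureCounts, STAR, Trimmomatic 0.36, MultiQC and FastQC appear, without roles, in the submitters' processing notes, and no genome build is stated there. The signal deposited by the authors is called normalized counts; multiplied by a single factor per library, 100% of the values were whole reads within 0.01. Of 55578 entries, 1 was incomplete and left out; chromosomes 6 and 7 were not analysed here. Of 122 samples, 121 had a column, and the remaining sample was not analysed here. None of the IDs (0) matched the 155467 entries of the gene table used here (RefSeq).

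Values were tested as log2(normalized count + 1) with limma 3.58.1 (R 4.3.3), 1 mean per group, trended variance, all groups of a tissue (both tissues for floret against rachis), entries with at least 10 in at least 3 libraries, two-sided p-values adjusted by Benjamini-Hochberg over all entries. Fold changes are on this scale and understate changes of low entries. The fits were tested on simulated data. Alternatives were pseudocounts of 0.5 and 5, no filter, means of at least 50 or 5, trimmed mean of M-values (TMM) factors, only the compared groups, edgeR 4.0.16 on the whole reads, each replicate number left out, a replicate block and, added after seeing the data, leaving out the 7 libraries whose score over 500 entries went against their tissue label; none was given another label. Members and lists were chosen with earlier results of these data known. Members were named at ranks 1, 2 and 100, with the entry next to rank 100, for the 2 highest mean levels, and, per test, for the largest called change each way with a mean of at least 50. Floret and rachis of a plant deviated together (59 pairs, mean correlation 0.21, 46 over 0.1), and they come from the same head per the labels. For same-numbered libraries within a tissue, heated and unheated pooled, the mean correlation was 0.001 (floret) and 0.009 (rachis).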

Additional observations from a re-analysis of the deposited data

Results flagged for a closer look

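Among the 4 members named first and the mean level of all members, 130 groups of 4 libraries were searched for a library far from the rest, of which chance flags about 1 in 20, and 6 groups held one. TraesCS2B03G0442100.1 had 419 normalized counts in replicate 1 of the rachis after EBR seed at 0 h (pots to be moved), against 3129 to 3498 in the others. TraesCS2D03G0341300.1 had 193 in replicate 1 of the floret after DMSO seed at 16 h and 29 °C, against 50.1 to 57.4; its heat effect there was -3.29 with and -3.74 without that library. TraesCS5B03G1237400.1 had 11135 in replicate 2 of the floret after DMSO seed at 24 h and 22 °C, against 7268 to 7876 (heat effect -0.74 with, -0.60 without it). The same gene had 3227 in replicate 4 of the rachis after DMSO seed at 24 h and 29 °C, against 3806 to 3886 (heat effect -0.68 with, -0.62 without it). It had 3805 in replicate 3 of the rachis after EBR seed at 0 h (pots to be moved), against 7351 to 8065. TraesCS1D03G0956300.1 had 17282 in replicate 3 of the floret after EBR seed at 16 h and 22 °C, against 782 to 1336; both libraries of that plant go against their tissue label.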

How the results depend on the processing

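The median heat effect of the members lay between -0.96 and -0.43 over 120 combinations of comparison and alternative, and 117 moved by less than the spread between replicates. The exceptions, all at 24 h after EBR seed, came from single replicates left out, with which the floret median ran between -0.56 and -0.45 (without replicate 1) and the rachis median between -0.56 and -0.47 (without replicate 1; -0.48 without replicate 4). Of the 100 members the rule kept 93 to 100 under other pseudocounts, mean limits and TMM factors, and 69, 73, 69 and 81 without replicates 1 to 4. Added after seeing the data, leaving out the rachis comparison of EBR plants at 8 h kept 96, and leaving out the 4 comparisons with the most calls over all entries kept 56. For EBR at 0 h, counts without single replicates were 1 to 5 in the floret (0.193% to 0.557% of all entries) and 0 to 1 in the rachis (0% to 0.0183%). The edgeR counts were 2 (0.678%) and 1 (0.0180%). A pseudocount of 5 or a mean of at least 50 gave 1 in the rachis (0.0206% and 0.0323%). For EBR at 8 to 24 h they were 0 to 9 in the floret, where edgeR called 2 and leaving out the 7 libraries against their tissue label gave 10, and 3 to 7 in the rachis, where fitting only the compared groups gave 7. Floret against rachis ranged from 9 to 36 (8.31% to 41.7% of all entries over the alternatives). For time, all alternatives gave 40 to 56 calls in the floret and 46 to 62 in the rachis. Over all entries the shares called for time ran from 33.6% to 57.8% and from 39.3% to 66.5%. The test of heat between replicate numbers, with alternatives also added after seeing the data, called 6 to 8 members in the floret and 4 to 8 in the rachis, the fewest without replicate 1. Over all entries its alternatives called 45 to 310 in the floret and 46 to 187 in the rachis. The cause of these shifts was not tested. With a replicate block, the floret calls were 1, 5 and 52 (EBR at 0 h, EBR at 8 to 24 h, time). Over all entries 0.470%, 15.3% and 48.7% were called. The rachis calls were 1, 11 and 56 (0.0206%, 15.9% and 55.5% of all entries), and EBR at 0 h gained its call there. Same-numbered libraries share only a number, and the plant block is given with the tissue comparison. Depth limits low members: 7 had a mean under 50 normalized counts.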
